A study of Camelina sativa with 41 samples.

Results

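Seeds of Camelina sativa aged 11 days were compared with seeds aged 5 days, counted from flower opening (days post-anthesis, DPA), the 2 ends of the sampled span. Camelina is an oilseed of the mustard family whose genome holds 3 sets of similar chromosomes. Of 41 deposited samples, 11 entered this comparison: 6 sequencing runs of the 11 DPA seeds and 5 of the 5 DPA seeds, which made 3 libraries of each age. They were chosen by the age in their labels. A further run labelled 5 DPA replicate 1 held the counts of 5 DPA replicate 2 for each of 89418 genes and was left out of replicate 1. The study, whose title names the regulation of lipid metabolism, also sequenced seeds at 8 DPA and assayed the DNA binding of 22 factors. All seeds came from plants of the cultivar Suneson that the labels call WT, grown in a greenhouse, with 3 biological replicates per age. The labels speak of harvested seedpods in one place and of RNA extracted from seeds in another. No tissue marker could be checked, because the files give gene IDs without names.

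As background, a seed of the mustard family begins as a small embryo inside an expanding, partly fluid endosperm, all wrapped in a maternal seed coat. The embryo then forms its organs, grows into the space of the endosperm and turns to filling, in which it makes storage proteins and oil. Transcription factors that act in the embryo are known to switch on genes of both kinds of reserve. A seed library is a mixture of these tissues, so a gain or loss of cells of a type and a change in RNA per cell cannot be told apart here.

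Messenger RNA was counted per gene, and levels are given as CPM, in which each library's counts are scaled to a common total. Some levels are given as TPM, scaled likewise after division by the deposited gene length, which may include introns. The 11 DPA libraries held 41419970 to 46863553 counts. The 5 DPA libraries held 15659011 counts in replicate 1, whose second run was not used, and 39256885 and 44123701 in the others. A floor of 3 counts thus stood at 0.0640 to 0.0724 CPM in an 11 DPA library and at 0.0680 to 0.192 CPM in a 5 DPA library, and covers counting error only. A pair of libraries stood apart from their groups. Replicate 1 of 11 DPA differed from replicates 2 and 3 by a chi-square per degree of freedom of 21.2 and 17.7, against 8.63 between those 2. Replicate 2 of 5 DPA exceeded both other 5 DPA libraries more than 4-fold for 443 of the 51132 genes averaging 1 CPM or more at that age, against 1 gene for replicate 1 and 22 for replicate 3. Of those 443 genes, 262 were called lower at 11 DPA and 34 higher, beside 29.1% and 29.8% of all tested genes. Without that library 198 of the 262 were still called lower. Among 50259 genes averaging 1 CPM or more at 11 DPA, the same excess over both others of the age was found for 107 genes in replicate 1, 120 in replicate 2 and 8 in replicate 3. Of the 107 genes 92 were called higher and 3 lower, against 17 and 3 of the 120. Without replicate 1, 76 of the 92 were still called higher. All these genes were picked for a high value at 1 age, which favours a call in that direction.

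Most measured genes changed over the 6 days. Of 63017 genes tested, 37159 (59%) were called by edgeR's quasi-likelihood test with a p under 0.05 after Benjamini-Hochberg adjustment. At 11 DPA 18808 genes were higher (29.8% of those tested) and 18351 were lower (29.1%). All 3 libraries of 11 DPA lay above all 3 of 5 DPA for 19040 genes (30.2%) and below them for 20861 (33.1%). The scaling of libraries holds the median log2 change near 0 (0.003), so the near-equal numbers of rises and falls are not a result. Whether the replicates of an age came from separate plants was not given in the sources used here, and the p-values measure only the spread between these libraries.

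Many of the changes were small, and a long tail was large. The median log2 change was 1.02 among genes called higher and -1.08 among genes called lower. Changes of at least 2-fold were found for 9546 genes called higher and 9631 called lower. At 8-fold the numbers were 3095 and 3467, and at 32-fold 1334 and 1586. For 17919 genes (28.4%) the 95% interval of the change lay within 1.5-fold in either direction, and 4130 of these were called. Of the 25858 genes not called, 13789 had an interval within 1.5-fold, while for 6632 it reached past 2-fold, so that a change of that size is not excluded for them.

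The share of genes called rose with their level. It was 51.3% of 10547 genes with a mean under 1 CPM over the 6 libraries, 64.7% of 20996 genes at 10 to 100 CPM and 85.2% of 27 genes at 1000 CPM or more. Fitted changes had a median standard error of 0.48 on the log2 scale in the lowest class and 0.10 at 10 to 100 CPM, so the precision differed between the classes as well. Among the 27 genes of the highest class, 13 were higher and 10 lower, and 44.4% of the 27 were at least 8-fold higher at 11 DPA.

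**Figure D1:**
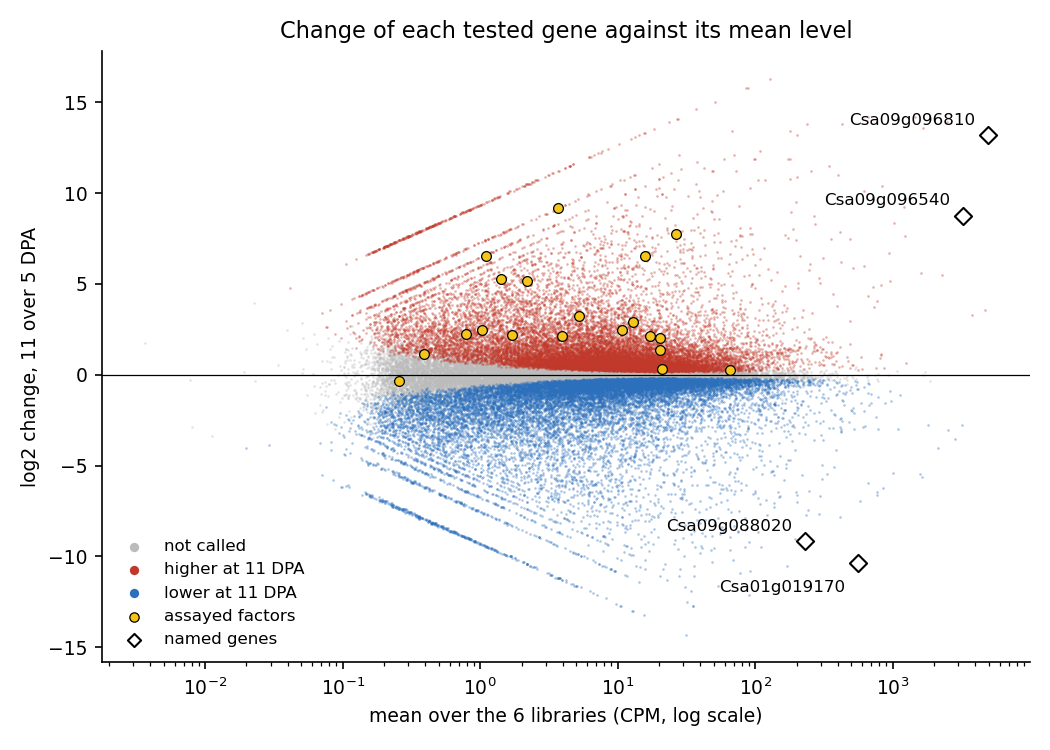
Log2 change, 11 over 5 DPA, of each of 63017 tested genes (vertical) against its mean over the 6 libraries in CPM (horizontal, log scale). Red and blue points were called higher and lower at 11 DPA by edgeR, grey points were not called, circles are the 20 tested factors and diamonds the 4 named genes; the diagonal lines of points are genes with no or few counts at 1 age, whose fitted change follows from the prior count. Both named genes that rose lie at the far right, and 18 of 20 factors lie in the red area.

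Much of the content of the libraries differed between the ages. Genes called higher held 47.8% ± 2.03 of the counts at 11 DPA and 18.9% ± 0.685 at 5 DPA, and genes called lower held 20.9% ± 1.27 at 11 DPA and 48.8% ± 0.864 at 5 DPA (SD of 3 libraries each). These genes were chosen by their change, so the direction follows from the choice, and the shares give only the amount. The 3095 genes at least 8-fold higher made up 14.7% ± 2.47 of the counts at 11 DPA and 0.497% ± 0.0579 at 5 DPA. The 3467 genes at least 8-fold lower made up 0.453% ± 0.143 at 11 DPA and 10.3% ± 0.479 at 5 DPA (SD of 3 libraries each). At 8 DPA these 2 groups held 4.96% and 3.87% of the counts, between the values of the ends.

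The leading genes held more of the gain than of the loss. Summed over the genes called higher, the mean level grew by 29.0% of all counts. Summed over the genes called lower, the loss was 27.9% of all counts. The 10 genes with the largest gain held 17.7% of the gain and the top 100 held 36.2%. The 10 genes with the largest loss held 11.3% of the loss and the top 100 held 29.4%.

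At the top of the abundance range most genes were replaced. Of the 100 genes with the highest mean CPM at 11 DPA, 33 were also among the top 100 at 5 DPA (33 of 100 in each list). The 67 genes in the 11 DPA list alone had a median log2 change of 4.95, and the 67 in the 5 DPA list alone one of -2.54. Ranked per length, in TPM, the lists shared 30 genes. A mean of at least 1000 CPM was reached by 32 genes at 11 DPA and by 30 at 5 DPA. Of the 32, 28 were called higher at 11 DPA, 24 of them at least 8-fold and 17 at least 32-fold, and together the 32 took 8.56% ± 1.499 of the counts at 11 DPA and 1.13% ± 0.0332 at 5 DPA. Of the 30, 26 were called lower at 11 DPA and 12 at least 8-fold, and together the 30 took 1.34% ± 0.226 of the counts at 11 DPA and 6.10% ± 0.481 at 5 DPA (SD of 3 libraries each). As with the groups above, being picked at 1 age favours a higher value at that age.

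The most abundant genes took more of the library at 11 DPA. Taken library by library, the 10 most abundant genes held 6.71%, 4.48% and 4.82% of the counts in the 11 DPA libraries, against 3.57%, 3.08% and 3.8% in the 5 DPA libraries. Every 11 DPA library lay above every 5 DPA library, with replicate 1 of 11 DPA the highest. The difference was 1.85 percentage points (exact permutation test, two-sided p = 0.1, the smallest that 3 against 3 libraries allow), and 1.17 points without 11 DPA replicate 1. For the 1000 most abundant genes the shares were 30.8% ± 1.65 at 11 DPA and 30.3% ± 0.729 at 5 DPA (SD of 3 libraries each), which overlapped (exact permutation test, two-sided p = 0.8). The number of genes at 1 CPM or more was 50067 ± 204 at 11 DPA and 50786 ± 829 at 5 DPA (SD of 3 libraries each; exact permutation test, two-sided p = 0.2). The difference of -719 genes was -247 without 5 DPA replicate 2.

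A pair of genes rose to very high levels at 11 DPA. They were named, with 2 that fell, as the largest changes among 13413 called genes with at least 10 counts in each of the 6 libraries, an average of 10 CPM or more and no overlap between the ages, so their size is a description of the choice. Csa09g096810 had 12850, 8089 and 8449 CPM in the 11 DPA libraries, against 0.958, 1.40 and 0.839 CPM in the 5 DPA libraries. It was nearly absent at 5 DPA, and replicate 1 of 11 DPA stood above the other two. The log2 change came to 13.19 (SE 0.54, edgeR adjusted p = 2.51e-07), and the gain of 9796 CPM was the largest among all genes called higher. Csa09g096540 had 9432, 4953 and 4981 CPM in the 11 DPA libraries, against 18.1, 13.5 and 14.8 CPM in the 5 DPA libraries. The 3 libraries of 5 DPA were close together, and replicate 1 of 11 DPA was again the highest. This gave a log2 change of 8.76 (SE 0.49, edgeR adjusted p = 7.76e-07).

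Both of these genes carry IDs of chromosome 9 and lie on the same strand, with deposited lengths of 807 and 702 bases. Per length, Csa09g096810 reached 23530 TPM ± 5614 at 11 DPA and 2.58 TPM ± 0.719 at 5 DPA, and Csa09g096540 reached 17780 TPM ± 6515 at 11 DPA and 43.1 TPM ± 6.24 at 5 DPA (SD of 3 libraries each). The pair made up 2.23%, 1.30% and 1.34% of all counts in the 11 DPA libraries, against a mean of 0.00165% at 5 DPA. At 8 DPA they stood at 423 CPM and 110 CPM, nearer in absolute level to 5 than to 11 DPA. Whether near-identical copies share their reads was not given in the sources used here, so the split of counts among such copies is uncertain for these and all other genes.

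The largest falls under the same rule took abundant genes to about 1 CPM. Csa01g019170 had 1.17, 0.784 and 0.483 CPM in the 11 DPA libraries, against 1084, 1106 and 1170 CPM in the 5 DPA libraries. The 5 DPA libraries varied little around their mean, and none of the 11 DPA libraries came near them. The change was -10.37 on the log2 scale (SE 0.83, edgeR adjusted p = 5.65e-06). Csa09g088020 had 0.469, 0.828 and 1.06 CPM in the 11 DPA libraries, against 542, 428 and 408 CPM in the 5 DPA libraries. The ages were far apart in every library. For this gene the log2 change was -9.17 (SE 0.52, edgeR adjusted p = 8.38e-07). At 8 DPA the level was 24.7 CPM for Csa01g019170 and 47.2 CPM for Csa09g088020. Most of the fall in CPM had thus taken place by then, which does not hold for the log2 scale in the same way. From there the means fell on to 0.814 and 0.787 CPM at 11 DPA.

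**Figure D2:**
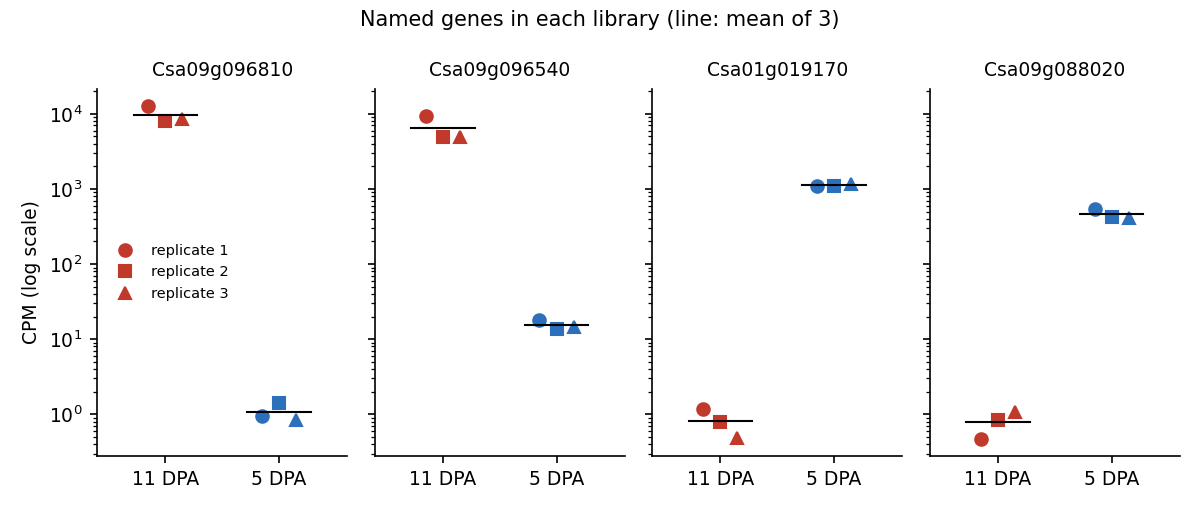
CPM (log scale) of the 4 named genes in the 3 libraries of 11 DPA (left, red) and of 5 DPA (right, blue), with 1 symbol per replicate and a line at the mean. Csa09g096810 and Csa09g096540 lie between 4953 and 12850 CPM at 11 DPA and at most at 18.1 CPM at 5 DPA, while Csa01g019170 and Csa09g088020 lie at most at 1.17 CPM at 11 DPA and at 408 CPM or more at 5 DPA.

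Some genes had counts at one end of the span only. Among genes averaging 10 CPM or more at 11 DPA, 23 lacked any count in the 5 DPA libraries. Their means ran from 12.4 to 255 CPM with a median of 28.8 CPM, and all 23 had counts in each of the 3 libraries of 11 DPA. Set against a floor of 3 counts over the 5 DPA group (0.0303 CPM), they were at least 408-fold to at least 8428-fold higher at 11 DPA. The reverse held for 14 genes, with means of 10.04 to 62.4 CPM at 5 DPA and no count at 11 DPA, at least 449-fold to at least 2791-fold lower against a floor of 3 counts over the 11 DPA group (0.0224 CPM). At 8 DPA 22 of the 23 and all 14 of the 14 had counts. The genes were short, with a median deposited length of 1348 bases for the 23 and 930 bases for the 14, against 2267 bases over all tested genes.

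These numbers rest on a count of 0 in each of 3 libraries and moved when a library was left out. Without 5 DPA replicate 2 or replicate 3, 53 or 50 genes in place of 23 had no count at 5 DPA. Without 11 DPA replicate 1 or replicate 2, 36 or 28 in place of 14 had none at 11 DPA. With a lower limit of 1 CPM the groups grew to 154 and 189 genes. Of the 189, 14 had 1 library of 5 DPA more than 4 times the next, and in all 14 that library was replicate 2. Of the 154, 14 had such a library of 11 DPA, which was replicate 1 in 11 of them.

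The factors whose DNA binding the study assayed mostly rose. The labels give 22 of them by gene ID, and the files pair no name or role with those IDs. Transcription factors are proteins that bind DNA and switch genes on or off. No seed library held a count of Csa01g013850 or Csa09g088620. Of the 20 tested, 18 were higher at 11 DPA by edgeR (90%, beside 29.8% of all tested genes) and 2 were not called. The number called lower was 0 with edgeR and with DESeq2, and stayed 0 with edgeR's p left unadjusted at 0.05. The median log2 change of the 20 was 2.35, against 0.003 over all tested genes. The series title names gene co-expression, so the factors may have been picked on these libraries, and their direction is then no independent evidence. For 17 of the 20 all 3 libraries of 11 DPA lay above all 3 of 5 DPA (30.2% of all tested genes). Replicate 1 of 11 DPA was the highest of its age for 14 of the 20. Without that library 18 factors were still called higher, and 17 to 19 were when each library was left out in turn. With a 2-fold threshold inside the test 14 were called, and Csa04g050690, Csa05g079950, Csa11g037200 and Csa13g011780 were not.

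Many factors were scarce at 5 DPA. A mean under 1 CPM was found for 2 of the 20 at 11 DPA and for 12 at 5 DPA, and 10 CPM or more for 9 at 11 DPA and 3 at 5 DPA. The 6 largest log2 changes were those of factors under 1 CPM at 5 DPA, but others under 1 CPM had values down to -0.34, and a low 5 DPA value enters the log2 change itself. Csa04g012470 had 70.6, 45.3 and 42.4 CPM in the 11 DPA libraries, against 0.192, 0.153 and 0.363 CPM in the 5 DPA libraries. The ages were far apart in all libraries. Its log2 change was 7.74 (SE 0.38, edgeR adjusted p = 4.21e-07), with 8.35 without 5 DPA replicate 3 and 7.41 without 5 DPA replicate 2. Csa19g036630 had 47.9, 24.4 and 22.1 CPM at 11 DPA, against 0.319, 0.255 and 0.431 CPM at 5 DPA. Replicate 1 of 11 DPA held about as much as the other two of that age together. Its log2 change was 6.56 (SE 0.49, edgeR adjusted p = 3.84e-06).

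Other low factors rose from a handful of counts, which leaves the size of their change loose. Csa02g073390 had 12.2, 4.47 and 5.24 CPM at 11 DPA, against a single count over the 5 DPA libraries. The ratio of its summed counts, each over the total of its age, 11 over 5 DPA, was 734 (131 to 29010 as the 95% counting interval), with an edgeR adjusted p of 9.66e-06. The fitted log2 change of 9.16 became 11.20 without 5 DPA replicate 3, which held the count, 8.57 without 5 DPA replicate 2, 8.52 without 11 DPA replicate 1 and 10.09 with the first run alone. Csa04g023980 had 293 counts at 11 DPA and 2 at 5 DPA, and their ratio per library total was 108 (29.7 to 897 as the 95% counting interval), with an edgeR adjusted p of 5.75e-05. This factor was called higher whichever library was left out, with a log2 change of 6.55 in the whole set, 5.80 without 5 DPA replicate 3 and 7.22 without 5 DPA replicate 1.

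A further 2 factors rose to a few CPM. Csa06g051300 had 3.22, 2.42 and 2.61 CPM at 11 DPA, against 0.0639, 0 and 0.136 CPM at 5 DPA (edgeR log2 change 5.27 with SE 0.69, adjusted p = 0.000139). The size depended on the 5 DPA libraries, with 7.01 without replicate 3 and 4.58 without replicate 2. Csa10g008930 had 5.25, 3.90 and 3.65 CPM at 11 DPA, against 0.0639, 0.178 and 0.0907 CPM at 5 DPA (edgeR log2 change 5.15 with SE 0.36, adjusted p = 2.62e-06). With the first run alone the change of Csa10g008930 was 6.02, and without 5 DPA replicate 3 it was 4.93. All 3 libraries of 11 DPA lay above all of 5 DPA for both.

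A group of 3 factors stood at about 1 to 9 CPM at 5 DPA. Csa02g060070 had 8.92, 10.3 and 8.98 CPM at 11 DPA, against 0.830, 1.02 and 1.13 CPM at 5 DPA. The groups were tight and well apart, and the log2 change was 3.23 (SE 0.16, edgeR adjusted p = 5.06e-07). Csa18g003140 had 22.7, 21.9 and 24.7 CPM at 11 DPA, against 2.17, 1.78 and 4.99 CPM at 5 DPA. Replicate 3 of 5 DPA was more than 2 times each other library of its age. The log2 change of 2.92 (SE 0.30, edgeR adjusted p = 2.97e-05) was 3.62 without replicate 3 of 5 DPA and 2.60 without replicate 2. Csa11g015700 had 37.98, 33.1 and 26.3 CPM at 11 DPA, against 8.24, 8.25 and 8.54 CPM at 5 DPA. Its 5 DPA libraries were nearly equal, and its log2 change was 2.0 (SE 0.16, edgeR adjusted p = 5.86e-06).

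For 3 more factors, 11 DPA replicate 1 stood well above the others. Csa08g011090 had 40.9, 17.9 and 24.8 CPM at 11 DPA, against 6.26, 7.62 and 5.94 CPM at 5 DPA. Csa13g021450 had 26.5, 13.6 and 14.8 CPM at 11 DPA, against 3.39, 3.44 and 3.4 CPM at 5 DPA. Csa05g079950 had 41.8, 22.5 and 23.2 CPM at 11 DPA, against 9.77, 10.3 and 14.03 CPM at 5 DPA. All 3 had all 11 DPA libraries above all 5 DPA libraries even so. Their log2 changes were 2.12, 2.47 and 1.39, with edgeR adjusted p of 0.000159, 3.84e-05 and 0.00127. Without 11 DPA replicate 1 the changes were 1.69, 2.06 and 0.998, and all 3 factors were still called higher.

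Another 4 factors were called at low levels. Csa06g004330, Csa11g072230, Csa13g011780 and Csa17g034220 averaged 1.32 to 6.37 CPM at 11 DPA and 0.244 to 1.496 CPM at 5 DPA, with log2 changes of 2.14 to 2.45. Without 1 library of 5 DPA the value for Csa13g011780 ran from 1.88 (replicate 1 left out) to 2.96 (replicate 2 left out). That for Csa17g034220 ran from 2.15 (replicate 1 left out) to 3.23 (replicate 3 left out).

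The smallest changes called were those of the 2 factors with the highest 5 DPA levels per length. Csa04g050690 averaged 23.3 CPM (SD 1.62) at 11 DPA, against 18.97 CPM (SD 0.886) at 5 DPA (3 libraries each; edgeR log2 change 0.33 with SE 0.07, adjusted p = 0.00240). Csa11g037200 had 61.2, 74.1 and 78.2 CPM at 11 DPA, against 63.6, 57.7 and 59.0 CPM at 5 DPA. Its groups overlapped, since 11 DPA replicate 1 lay below 5 DPA replicate 1. Its log2 change amounted to 0.28 (SE 0.09, edgeR adjusted p = 0.0214), and the call was lost in 6 of 14 other settings.

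The 2 factors that were not called were both below 1 CPM at either age. Csa19g005080 had 69 counts at 11 DPA and 22 at 5 DPA (log2 change 1.12, edgeR adjusted p = 0.0703). It was called higher without 5 DPA replicate 1 (log2 change 1.52, edgeR adjusted p = 0.0315) and with runs summed as deposited (1.17, edgeR adjusted p = 0.0358). Csa13g019570 had 30 counts at 11 DPA and 29 at 5 DPA (log2 change -0.34, edgeR adjusted p = 0.620, 95% interval -1.56 to 0.89). That interval includes a fall of 2-fold and stops short of a rise of 2-fold.

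**Figure D3:**
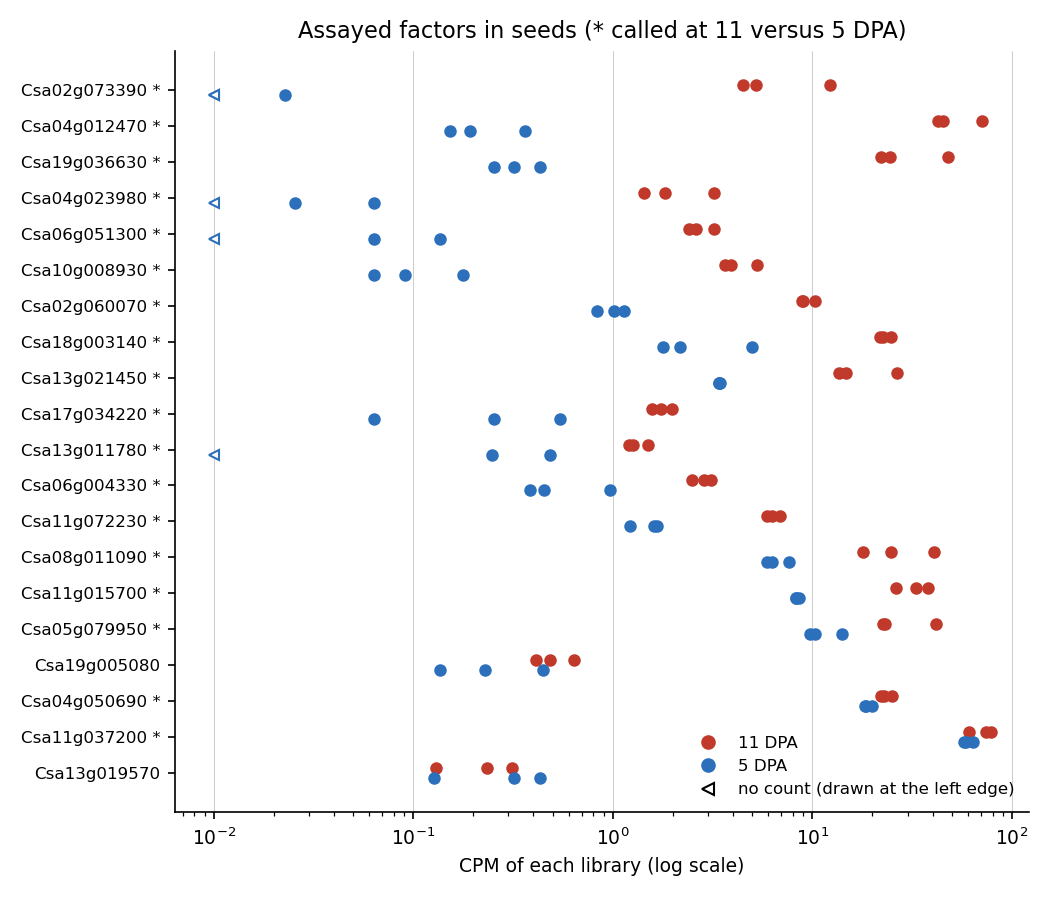
CPM (log scale) of the 20 tested factors in each library of 11 DPA (red, upper row of points) and of 5 DPA (blue, lower row), ordered by log2 change with the largest at the top. Triangles at the left edge are libraries with no count and stars mark the 18 factors called by edgeR; 2 factors average under 1 CPM at 11 DPA and 12 do at 5 DPA.

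Direction went with gene length. Tested genes were split into 5 equal classes by the deposited length, from 132 to 1336 bases in the shortest to 3799 to 40601 bases in the longest. In the shortest class 23.9% of genes were higher at 11 DPA and 36.1% lower, and in the longest class 36.5% were higher and 22.4% lower, beside 29.8% and 29.1% of all tested genes. The median log2 change moved in order through the 5 classes, with -0.19, -0.07, 0.00, 0.05 and 0.12 in turn. The split was found within some classes of level and not in others. Among genes of 10 to 100 CPM, 25.1% of the shortest class were higher and 46.5% lower, and 40.5% of the longest class were higher and 21.7% lower. At 1 to 10 CPM the values were 25.2% and 36.7% in the shortest class and 34.8% and 21.3% in the longest. Under 1 CPM the classes were alike, with 21.2% higher and 29.7% lower in the shortest and 21.8% and 28.1% in the longest. At 100 to 1000 CPM falls led in both, with 27.9% higher and 45.9% lower in the shortest and 31.3% and 39.8% in the longest. Genes are not independent replicates, and whether the deposited length includes introns was not given in the sources used here.

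**Figure D4:**
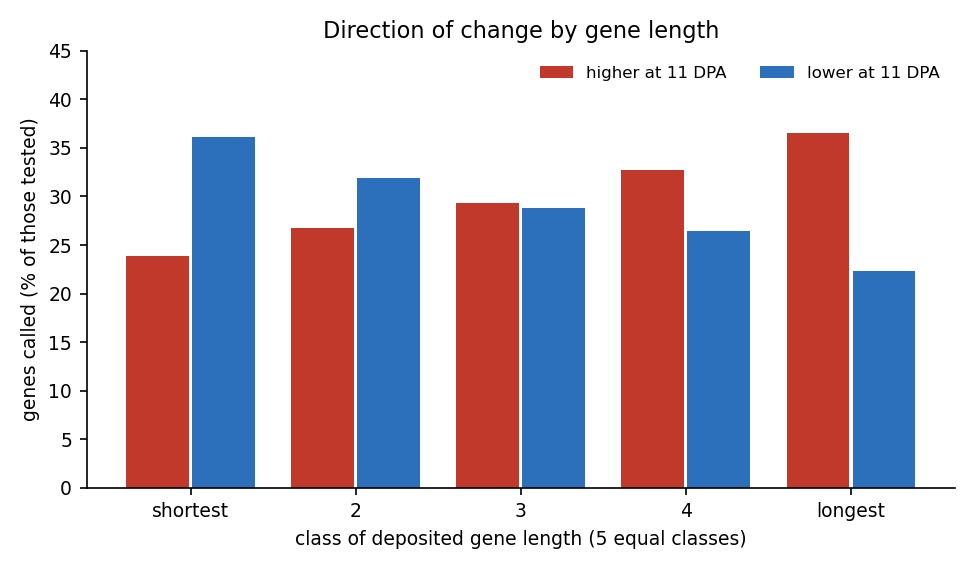
Percent of tested genes called higher (red) and lower (blue) at 11 DPA by edgeR, in 5 classes of the deposited gene length. The red bars grow with length, with 23.9% in the shortest and 36.5% in the longest class, and the blue bars shrink, with 36.1% and 22.4%.

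The most abundant genes went against this gradient. Of 14 genes in the shortest class with a mean of at least 1000 CPM, 11 were higher at 11 DPA, each at least 8-fold. The shortest class as a whole held 18.1% ± 1.46 of the counts at 11 DPA and 16.4% ± 0.503 at 5 DPA (SD of 3 libraries each). With the 100 most abundant genes set aside, it held 12.7% ± 0.517 at 11 DPA and 15.3% ± 0.449 at 5 DPA (SD of 3 libraries each). Without 11 DPA replicate 1 the difference with all genes was 0.884 in place of 1.73 percentage points, and that without the 100 genes was -2.83 in place of -2.54. In both cases the libraries of the ages did not overlap, in opposite directions (exact permutation test, two-sided p = 0.1 each, the smallest possible).

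The 20 chromosomes changed to a similar extent. The share of tested genes called ran from 56.9% on chromosome 3 to 61.6% on chromosome 12, beside 59% of all. The share called higher ran from 27.4% on chromosome 19 to 31.9% on chromosome 9, and the share called lower from 27.4% on chromosome 6 to 32.4% on chromosome 15. Of 1342 tested genes whose ID carries no chromosome number, 42.6% were called. Their changes were less precise, with a median standard error of 0.28 against 0.16 for genes on chromosomes. The size was similar, with a median absolute log2 change of 0.50 against 0.54. Grouped into the 3 sets of chromosomes that descend from related genomes, 58.7%, 58.7% and 60.5% of tested genes were called in sets A, B and C.

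Set C took a larger share of the counts at 11 DPA, and a few genes carried that gain. It held 39.5%, 39.2% and 39.0% of the counts on chromosomes in the 11 DPA libraries, against 37.5%, 37.4% and 37.5% in the 5 DPA libraries. All 11 DPA libraries lay above all 5 DPA libraries, by 1.76 percentage points on average (exact permutation test, two-sided p = 0.1, the smallest possible). Set A held 30.5% ± 0.109 at 11 DPA and 31.5% ± 0.0463 at 5 DPA, and set B 30.3% ± 0.166 at 11 DPA and 31.0% ± 0.0486 at 5 DPA (SD of 3 libraries each). Both named genes that rose belong to set C. So do 17 of the 32 genes with at least 1000 CPM at 11 DPA and 14 of the 30 at 5 DPA, beside 21549 of the 61675 tested genes on chromosomes. Without these 2 genes the gain of set C was 0.745 points. Without the 10 genes of the highest mean CPM over the 6 libraries it was -0.07 points and the libraries of the ages overlapped (exact permutation test, two-sided p = 0.6), and without the 1000 highest it was -0.46 points (p = 0.1 by the same exact test). The genes to set aside were chosen after seeing the data.

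**Figure D5:**
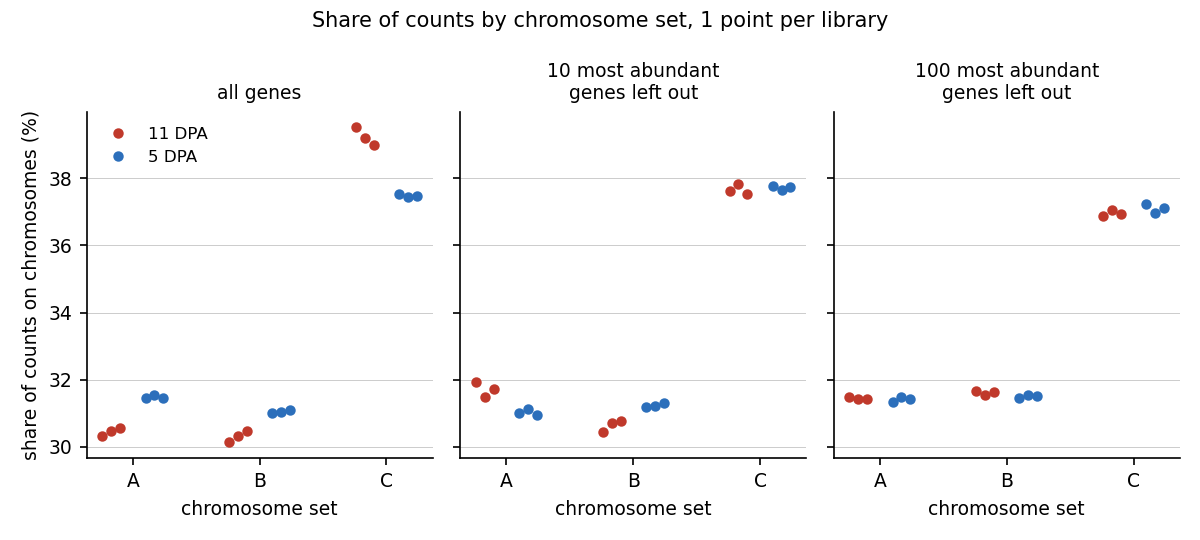
Share of the counts on chromosomes held by each of 3 chromosome sets (percent), with 1 point for each library of 11 DPA (red, left) and 5 DPA (blue, right), for all genes and with the 10 or the 100 most abundant genes left out; the axis does not start at 0. Set C lies 1.76 points higher at 11 DPA with all genes, and the ages overlap in both other panels for that set.

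Genes with adjacent IDs tended to change alike, weakly. IDs carry a running number within each chromosome, and genes with adjacent numbers were taken as neighbours, which was not checked against positions. Over 47003 pairs of adjacent tested genes, Pearson's r of the log2 changes was 0.117. It was 0.0482 between genes 2 IDs apart, 0.0146 at 10 IDs and 0.00229 at 100 IDs. By orientation it was 0.166 for 23572 adjacent pairs on the same strand, 0.0901 for pairs pointing apart and 0.0358 for pairs pointing at each other. The pairs share libraries and, where genes overlap, possibly reads. The use of strand in counting was not given in the sources used here.

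Likeness was clearer among large changes. Moves in the same direction made up 56.8% of 16955 adjacent pairs in which both genes were called, whatever the size of change. Of 834 adjacent pairs in which both genes were called with at least 8-fold changes, 72.5% moved the same way, and 78.5% of the 517 such pairs on the same strand did. At 100 IDs apart the figure was 56.7% of 284 pairs. Runs of 5 or more adjacent genes all called at least 2-fold in one direction numbered 6 for rises and 10 for falls. The longest run of rises held 6 genes on chromosome 16, on both strands, with log2 changes of 1.26 to 4.23. The longest run of falls held 7 genes on chromosome 18, all on one strand, with log2 changes between 5.48 and 10.20 in size. Such runs can hold near-identical copies that share reads, which was not tested.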

How the data were processed

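Whole-number counts per gene and sequencing run were deposited by the authors, and the libraries kept strand, per the labels' protocols. The submitters' processing notes name HISAT2 2.0.4, Bowtie2 2.3.4.1, Trimmomatic, FastQC and bcl2fastq 2.20.0 without their roles. How genes were counted (tool, strand, reads with several matches, annotation, genome build) was not given in the sources used here. Strand and gene length, in bases, are other columns that the authors deposited, per the file headers.

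The 2 runs of a replicate were summed, except that 5 DPA replicate 1 kept its first run alone. The left-out run differed from that first run by a chi-square per degree of freedom of 9.39, against 1.34 from the first run of 5 DPA replicate 2. The test was that of edgeR 4.0.16 under R 4.3.3 (TMM scaling, genes kept by filterByExpr, glmQLFit and glmQLFTest, all 9 seed libraries in 1 fit, contrast 11 minus 5 DPA, Benjamini-Hochberg adjusted p under 0.05). The script was tested on simulated data. Standard errors were obtained as log2 change over the root of F. CPM use library totals. Shares per library were compared by exact permutation tests. The other settings tried were the first run alone, each library left out, a block for the replicate number, a 2-fold threshold, a fit of only the 6 libraries compared, no low-count filter, values per gene length, and DESeq2 1.42.0 for the test or for size factors. Runs summed as deposited and shares without the most abundant genes were added after seeing the data.

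Named genes were the 2 largest rises and 2 largest falls in log2 change under the filters given with them, besides the factors of the labels, because 0 of the 89418 IDs matched the 98741 genes of the reference table. The chromosome sets (A: 4, 7, 8, 11, 14 and 19; B: 1, 3, 6, 10, 13, 16 and 18; C: the others) come from general knowledge of this genome. Peak lists were not used here. The members and lists were chosen with earlier results of these data known.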

Additional observations from a re-analysis of the deposited data

How the results depend on the processing

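The counts of genes called moved by less than 1.5 times in every setting tried except a 2-fold threshold inside the test, which left 13558 genes, 6752 higher and 6806 lower, with 14 factors called higher. Leaving out each library in turn gave 34758 to 35799 genes called, 17540 to 18326 higher and 17156 to 17742 lower, with 17 to 19 factors called higher. DESeq2's Wald test called 37611 genes, the first run alone 31882 and runs summed as deposited 39152. Whether shared replicate numbers pair the samples was not given in the sources used here. Same-numbered 11 and 5 DPA libraries deviated with correlations of -0.0818, 0.0564 and 0.0960, and not every sample correlated best with its own number. With 3 libraries per age these values cannot decide whether the samples were paired. With the replicate block 35856 genes were called. The log2 change of Csa13g019570, not called, ranged over -0.75 to 0.23 when a library was left out (0.23 without 5 DPA replicate 3); the cause was not tested. Genes averaging 10 CPM or more at 11 DPA with no count at 5 DPA numbered 22 to 53 when a library was left out. They numbered 45 with the first run alone and 154 from 1 CPM. The reverse group, with no count at 11 DPA, numbered 12 to 36, 43 and 189 in turn. Per gene length, 11 minus 5 DPA was 7.86, 7.55 and 3.74 percentage points for the 10, 100 and 1000 most abundant genes, and -2.34 and 2.96 points for chromosome sets A and C. With the 2 named risers, or the 10, 100 or 1000 most abundant genes, left out, set A differed by -0.518, 0.667, 0.0284 and 0.259 points, set B by -0.228, -0.600, 0.119 and 0.201, and set C by 0.745, -0.0670, -0.147 and -0.460. The share of the 1000 most abundant genes ranged over -0.368 to 1.17 points when a library was left out. Counts of genes seen at only 1 of the 2 compared ages rest on counts of 0, and changes in genes of a few counts are loosely sized.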
